A study of Mus musculus with 8 samples.

Results

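A set of 55 genes of the cell cycle and of DNA replication was followed across 4 mouse mammary carcinoma cell lines. They were chosen by name, as the rows of the count tables whose gene identifiers carry these 55 symbols in the GENCODE M21 annotation of GRCm38 (mm10), out of 53379 genes in each table. All 55 were found, all had reads in each of the 8 libraries, and all were among the 15890 genes that passed the filter on low counts. By role they were 10 genes of origin licensing and the replicative helicase, 5 of the fork clamp and deoxynucleotide supply, 8 cyclins, 3 cyclin-dependent kinases (CDKs), 5 CDK inhibitors, 5 of the phosphorylation switch on CDKs and its checkpoint, 6 of the E2F and RB families with Foxm1, and 13 of mitosis.

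The lines pB2 and pB3 came from tumours of MMTV-PyMT mice, in which a mammary tumour virus promoter drives the polyoma middle T oncogene in mammary epithelium. The lines Epcam hi and 687g came from tumours of MMTV-PyMT-Snail-IRES-YFP reporter mice, so all 4 share the PyMT transgene and the C57BL/6 background. Each was grown untreated as an adherent layer in DMEM/F12 with 5% serum, and 2 libraries of messenger RNA were sequenced per line. Each group is 1 cell line, the labels do not say whether replicate libraries came from separate cultures, and they give no growth rate, so the p-values given here speak only of the spread between such libraries.

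A dividing cell passes a commitment step late in G1. D-type cyclins with their kinases phosphorylate the RB family, which frees E2F factors to switch on the genes of S phase, among them the MCM proteins that load onto origins. Cyclin E, cyclin A and then cyclin B kinases carry the cell through S phase into mitosis, for which a later set of genes, many of them under Foxm1 and the MuvB complex, is made. CDK inhibitors hold these kinases back: the INK4 family (Cdkn2a, Cdkn2b, Cdkn2c) acts on the partners of cyclin D, and the CIP/KIP family (Cdkn1a, Cdkn1b) on several complexes. The messages of most of these genes rise and fall with the phase, so their level in a culture depends on how many cells are in it. In RNA from bulk cells, fewer cells in a phase and less RNA per cell cannot be told apart.

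The 8 libraries held 12442730 to 19149916 counts and 21087 to 22935 genes with a count. Replicate libraries correlated over the 55 genes at r = 0.992 for pB2, 0.997 for pB3, 0.966 for Epcam hi and 0.975 for 687g (log2 CPM, across genes, which are not independent). The Epcam hi libraries stood furthest apart: 5 of the 55 genes were over 1.5-fold higher in the second library and 1 lower, against 10.4% and 17.1% of all genes tested. Some markers of other cells differed between the lines, and their part in the results was not tested. The summed CPM (counts per scaled library total, in the usual CPM unit) of 7 leukocyte genes was 0.739 to 1.81 for pB2 and pB3, 36.2 and 14.3 for Epcam hi and 3.74 and 2.75 for 687g, and that of 4 endothelial genes was at most 0.940. The sum of 6 fibroblast genes had a mean of 70.0 CPM for pB2 and 2.61 to 15.0 for the others, and that of 4 adipocyte genes 23.9 for 687g and at most 2.42 for the others. Only 2 of the 6 fibroblast genes and 1 of the 4 adipocyte genes passed the filter on low counts, and Adipoq had no count in any library. These sums therefore rest on few genes. The leukocyte sum of Epcam hi was nearly all Cd68 (35.5 and 13.4 CPM), with Ptprc, which marks all leukocytes, at 0.141 and 0.383 CPM. Epithelial and mesenchymal markers were both present in the set of lines. Epcam was at 264 CPM or more and Cdh1 at 50.9 or more in pB2, pB3 and Epcam hi, although pB3 also had the mesenchymal genes Vim at 2307 and 2429 CPM, Zeb1 at 27.1 and 27.9 and Prrx1 at 77.4 and 77.8, against Vim at 13.8 and 14.1 for pB2 and 21.3 and 32.4 for Epcam hi. With Fn1 added, the 4 mesenchymal genes summed to 184 and 272 CPM for pB2, 4669 and 4791 for pB3 and 2813 and 2983 for Epcam hi. Most of the Epcam hi sum was therefore not Vim. For 687g the sum was 16380 and 7740 CPM, so its libraries stood far apart. In Epcam hi the basal keratin gene Krt14 was at 2.74 and 2.35 CPM. In 687g Vim stood at 3384 and 2332 CPM, Epcam at 3.85 and 3.69 CPM and Cdh1 at 1.90 and 0.738 CPM, with the keratin gene Krt18 still at 1159 and 1068 CPM.

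The 55 genes together took the smallest share of the RNA in 687g and the largest in pB2, where 3 genes carried the gap to pB3. Their summed level was 11290 ± 378 CPM for pB2, 9362 ± 99.8 for pB3, 7770 ± 482 for Epcam hi and 6560 ± 47.6 for 687g (SD, n = 2 libraries), and they took 1.26% and 1.23% of the counts in the pB2 libraries against 0.611% and 0.611% in those of 687g. No library of one line overlapped another in this sum. Without Tyms, Tk1 and Birc5, which lie on stretches where many genes were lower than in pB2, the sum was 8558 ± 94.7 CPM for pB2 and 8608 ± 111 for pB3, which overlapped, with 7251 ± 338 for Epcam hi and 5993 ± 46.5 for 687g below them. The order was the same for mitosis genes, with 2889 ± 42.4, 2173 ± 18.5, 1903 ± 47.6 and 1352 ± 70.1 CPM (2000 ± 93.8, 1861 ± 27.6, 1652 ± 27.9 and 1161 ± 98.9 without Birc5), and for licensing genes, with 1254 ± 21.2, 1151 ± 27.5, 776 ± 49.0 and 663 ± 73.5. It differed for the cyclins, which summed highest in pB3 (1847 ± 17.1 CPM), and for the CDK inhibitors, which summed lowest there (286 ± 14.1 CPM, against 397 to 460 in the other lines). Ccnd1 alone made up most of the cyclin sum in pB3 (mean 1062 CPM, against 496 in pB2). Of the 8 cyclins, 6 had a fold change below 0 in pB3 against pB2. Cdkn1b made up most of the inhibitor sum in pB3 (mean 207 CPM) and was itself lowest in Epcam hi (187 CPM). The CDKs also summed highest in pB3 (1954 ± 77.5 CPM, against 1744 ± 167 in pB2). In the clamp and deoxynucleotide group 687g (1141 ± 146 CPM) stood above Epcam hi (1040 ± 198), with overlapping libraries. In the group of the phosphorylation switch Epcam hi (193 ± 6.31 CPM) stood above pB3 (185 ± 0.301). Of the 55, 42 differed among the lines in an edgeR quasi-likelihood test at an adjusted p under 0.05, beside 66.5% of all genes tested, and 13 did not.

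**Figure D1:**
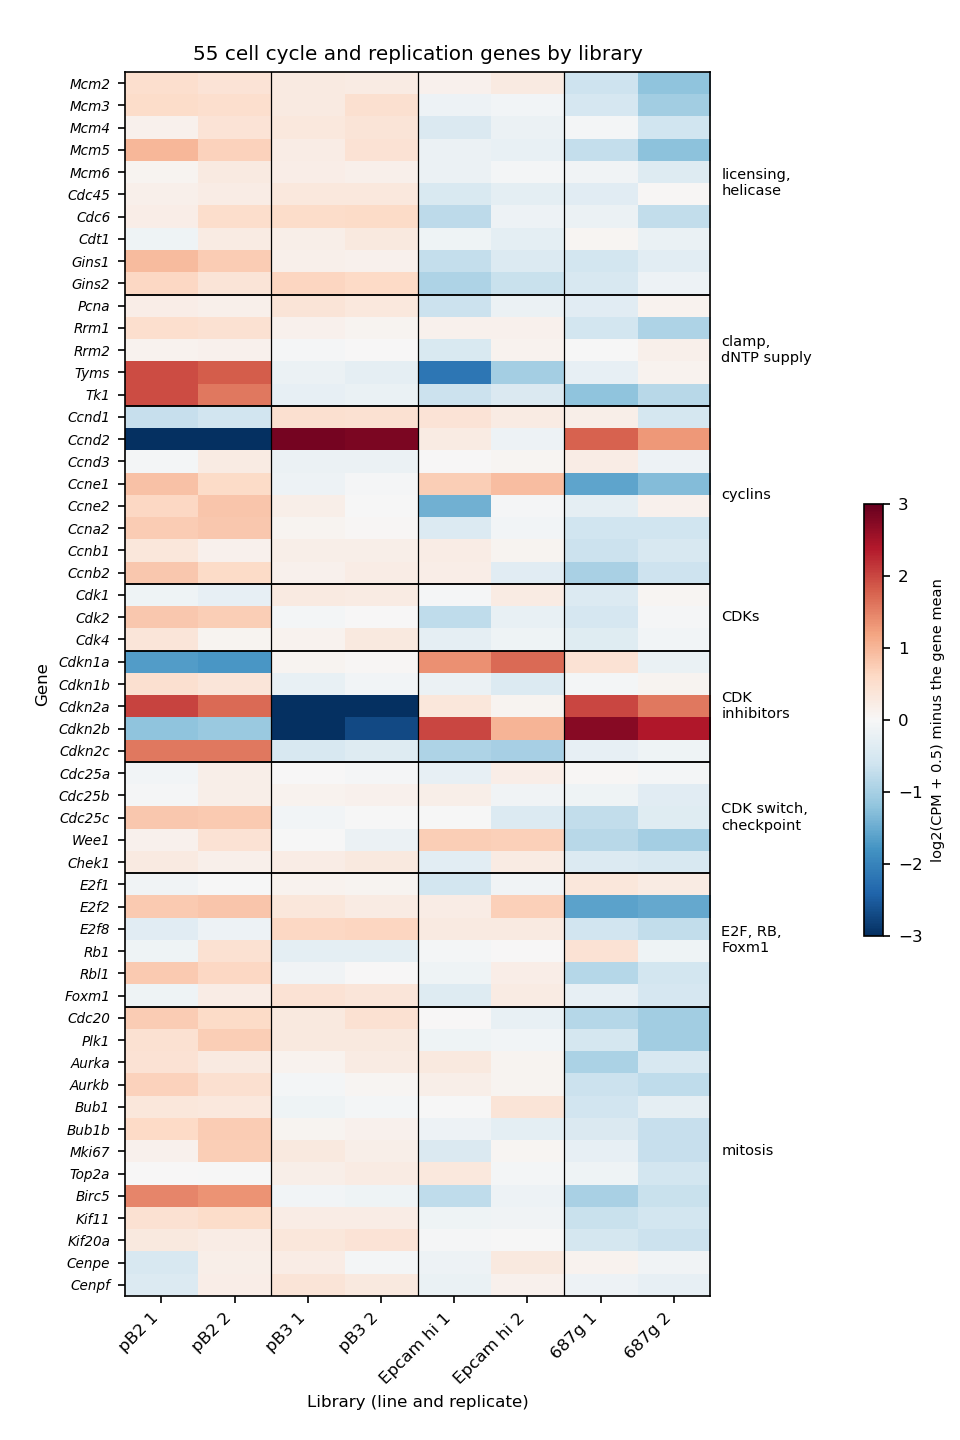
Level of each of the 55 genes (rows, grouped by role) in each of the 8 libraries (columns), as log2(CPM + 0.5) minus the mean of the gene, with colours held between -3 and 3. By line mean, pB2 is the highest for 32 rows and 687g the lowest for 34, while Ccnd2 is bluest in pB2 and Cdkn2a and Cdkn2b in pB3.

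Both pB2 libraries lay above the other 6 for 22 of the 55 genes (24.2% of all genes tested did so), and both 687g libraries lay below the other 6 for 24 (12% of all genes). Both pB3 libraries were the highest for 10 (7.78% of all genes), a group with the kinase Cdk1, the clamp Pcna, the transcription factors Foxm1 and E2f8 and the licensing factor Cdc6. Both Epcam hi libraries were the highest for Cdkn1a and Wee1 only (13.2% of all genes), which encode a CDK inhibitor and an inhibitory kinase of Cdk1. Both 687g libraries were the highest for Cdkn2b and E2f1 only (12.6% of all genes). At the low end, both pB2 libraries were below the other 6 for Ccnd1, Ccnd2 and Cdkn1a (21.9% of all genes), both pB3 libraries for Ccnd3, Cdkn2a, Cdkn2b and Rb1 (6.11%), and both Epcam hi libraries for Gins2, Tyms, Cdkn2c and E2f1 (11.3%).

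Between the MMTV-PyMT lines, 16 of the 55 genes were lower and 4 higher in pB3 than in pB2, beside 23.2% lower, 21.6% higher and 44.8% called either way of all genes tested. The 4 higher were Ccnd2, Cdkn1a, Ccnd1 and E2f8. The median log2 fold change of the 55 was -0.23, against 0.02 for all genes. The count of lower genes fell to 10 without pB2 replicate 1, 8 without pB3 replicate 1 and 10 without pB3 replicate 2. With total counts in place of scaling factors it was 25, the median of all genes shifted by -0.187, and the share of all calls that were higher went from 48.2% to 37.6%. With only these lines in the fit, 26 were lower and 7 higher, while of all 14683 genes tested there 4807 were lower and 4547 higher. The calls over all genes thus rose as well, from 7115 to 9354.

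Between the lines from reporter mice, 19 genes were lower and 6 higher in 687g than in Epcam hi, beside 18% and 18.4% of all genes tested (36.4% called either way). The median log2 fold change of the 55 was -0.33 (-0.03 for all genes, which moves by -0.121 with total counts), but -0.03 without Epcam hi replicate 2 and -0.18 without 687g replicate 2. All 13 mitosis genes had a fold change below 0 and 7 of them passed the test, with a median of -0.50. Without Epcam hi replicate 2, 9 of the 13 were below 0 and 4 passed. The 6 higher were Cdkn2a, Ccnd2, Tyms, Cdkn2b, Cdkn2c and E2f1, so 3 of the 5 CDK inhibitors were among them. Without Epcam hi replicate 2 the count of higher genes was 10.

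Lines were also compared across the mouse models. In Epcam hi against pB2, 26 genes were lower and 5 higher, beside 25.6% and 25.8% of all genes (51.4% called either way), with 7 of 10 licensing genes and 7 of 13 mitosis genes lower and none of either higher. In 687g against pB3, 29 were lower and 2 higher, beside 12.9% and 12.8% of all genes (25.8% called either way). The 2 higher were the inhibitors Cdkn2a and Cdkn2b. The median of the 55 was -0.35 in the first and -0.65 in the second, against 0.06 and -0.00 for all genes. Without Epcam hi replicate 2 the first was -0.59. Leaving out pB3 replicate 1 or pB3 replicate 2 lowered the count of 29 to 16 in either case, while the count over all genes fell from 4093 to 2474 and 2402. These comparisons share libraries with those within each model.

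**Figure D2:**
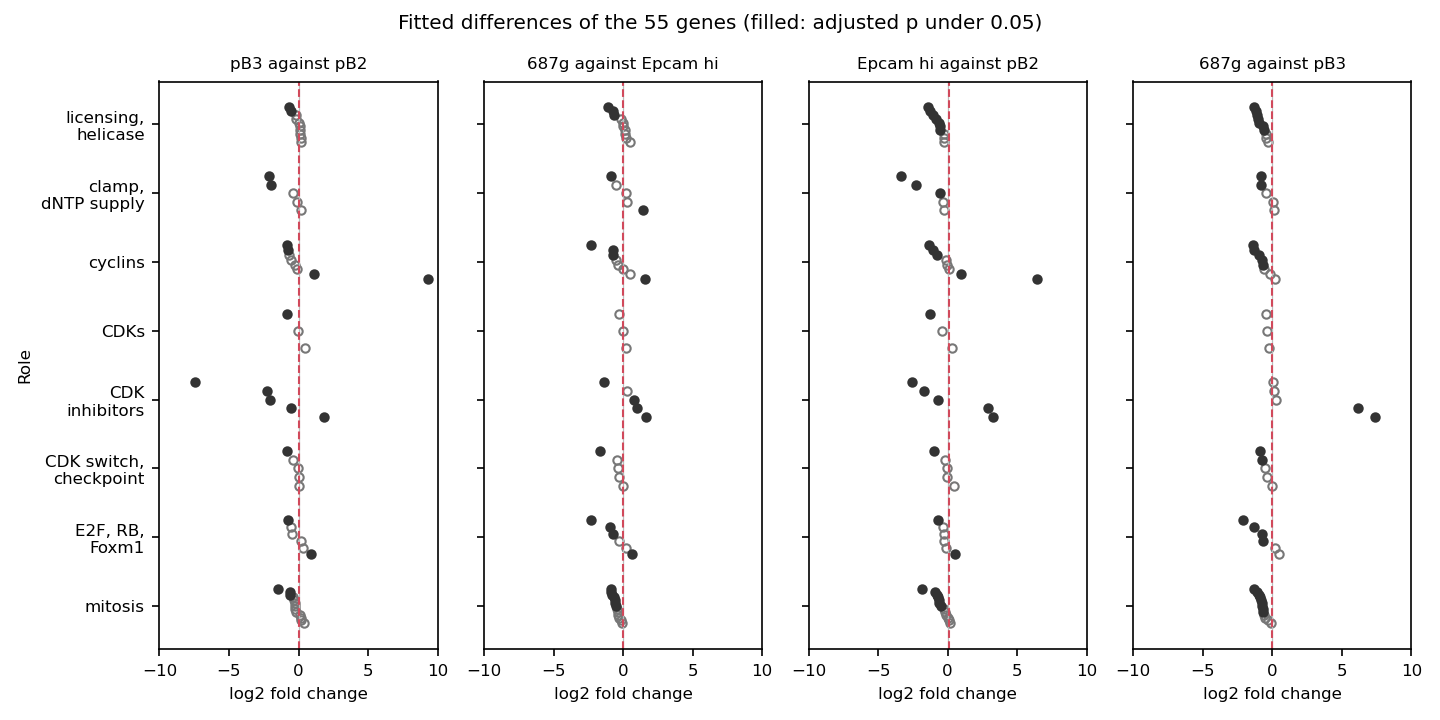
Fitted log2 fold change (horizontal axis) of each of the 55 genes by role in the 4 comparisons of lines; filled points passed an adjusted p under 0.05, open points did not, and the dashed line is the median of all genes tested. In 687g against pB3 the 29 filled points on the left hold members of each role except the kinases and the inhibitors, and both filled points on the right are CDK inhibitors.

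Promoter sequences were read for those of the 55 genes that had an entry, to show what the groups by role share in sequence. The RefSeq table for GRCm38.p6 held 47 promoters (250 bases before to 50 after a start) for 42 of the 55 genes. The 13 without an entry were Ccnd1, Ccnd2, Ccne2, Ccna2, Mcm4, Gins1, Gins2, Cdc25c, Wee1, Rb1, Foxm1, Aurkb and Kif20a. The E2F motif in 4 spellings (TTTCCCGC, TTTCGCGC, TTTGCCGC, TTTGGCGC), the CHR element of mitotic genes (TTTGAA or TTCGAA) and the CCAAT box bound by NF-Y were searched on both strands. An E2F match lay in 5 of 7 licensing promoters and in 0 of 11 mitosis promoters, against 2.27% of all 32851 promoters in the table. A CHR match lay in 9 of 11 mitosis promoters and 2 of 7 licensing promoters (19.2% of all), and a CCAAT match in 10 of 11 and 5 of 7 (37.4% of all). None of the 5 promoters of the clamp and deoxynucleotide group held an E2F or CHR match. The 250 bases before 6 starts follow, 5′ to 3′ on the strand of the gene, with motif matches in capitals. Matches in the 50 bases after a start are counted above but not shown. Mcm5 stands for the licensing genes, Cdc20 for the mitosis genes and Cdk1 for a promoter with all 3 motifs. Tk1 has none of them, and Cdkn2a has a start for Arf, which lies upstream, and another for Ink4a.
Mcm5 (GRCm38.p6, chr8:75109259-75109508, plus strand): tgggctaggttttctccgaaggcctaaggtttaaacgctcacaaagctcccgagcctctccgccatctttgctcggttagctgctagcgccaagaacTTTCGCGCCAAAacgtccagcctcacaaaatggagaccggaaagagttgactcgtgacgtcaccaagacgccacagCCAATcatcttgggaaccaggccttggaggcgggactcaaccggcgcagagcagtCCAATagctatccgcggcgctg
Cdk1 (GRCm38.p6, chr10:69352913-69353162, minus strand): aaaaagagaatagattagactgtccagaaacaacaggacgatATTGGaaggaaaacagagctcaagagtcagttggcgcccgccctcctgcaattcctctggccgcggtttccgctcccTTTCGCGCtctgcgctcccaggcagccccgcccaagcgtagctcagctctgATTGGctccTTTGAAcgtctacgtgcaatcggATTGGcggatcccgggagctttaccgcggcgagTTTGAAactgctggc
Cdc20 (GRCm38.p6, chr4:118437344-118437593, minus strand): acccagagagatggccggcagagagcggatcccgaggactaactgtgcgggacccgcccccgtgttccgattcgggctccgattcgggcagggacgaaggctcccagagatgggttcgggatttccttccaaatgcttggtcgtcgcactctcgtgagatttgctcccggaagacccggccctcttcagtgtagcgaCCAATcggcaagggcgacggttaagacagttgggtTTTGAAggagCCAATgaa
Tk1 (GRCm38.p6, chr11:117826015-117826264, minus strand): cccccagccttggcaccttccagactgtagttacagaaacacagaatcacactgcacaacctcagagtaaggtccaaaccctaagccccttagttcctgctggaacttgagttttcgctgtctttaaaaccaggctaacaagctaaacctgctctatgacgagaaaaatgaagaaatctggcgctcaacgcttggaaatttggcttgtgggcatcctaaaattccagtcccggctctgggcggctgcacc
Cdkn2a, upstream start (GRCm38.p6, chr4:89294620-89294869, minus strand): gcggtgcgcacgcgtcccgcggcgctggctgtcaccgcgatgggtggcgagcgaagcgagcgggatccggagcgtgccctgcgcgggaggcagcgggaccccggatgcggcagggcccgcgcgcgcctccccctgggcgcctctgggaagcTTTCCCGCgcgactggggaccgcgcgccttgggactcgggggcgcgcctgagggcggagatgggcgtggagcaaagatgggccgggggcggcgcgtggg
Cdkn2a, downstream start (GRCm38.p6, chr4:89282193-89282442, minus strand): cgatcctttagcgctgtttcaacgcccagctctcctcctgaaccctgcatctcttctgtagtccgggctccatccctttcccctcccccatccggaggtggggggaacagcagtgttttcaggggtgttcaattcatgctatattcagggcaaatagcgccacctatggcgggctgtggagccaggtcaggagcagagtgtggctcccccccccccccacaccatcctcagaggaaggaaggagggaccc
In the Mcm5 promoter the matches to TTTCGCGC and, on the other strand, to TTTGGCGC overlap. A match describes letters in this window and is neither a binding site nor a cause. The upstream Cdkn2a start has 1 E2F match and the downstream start has none of the 3 motifs in the bases shown.

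**Figure D3:**
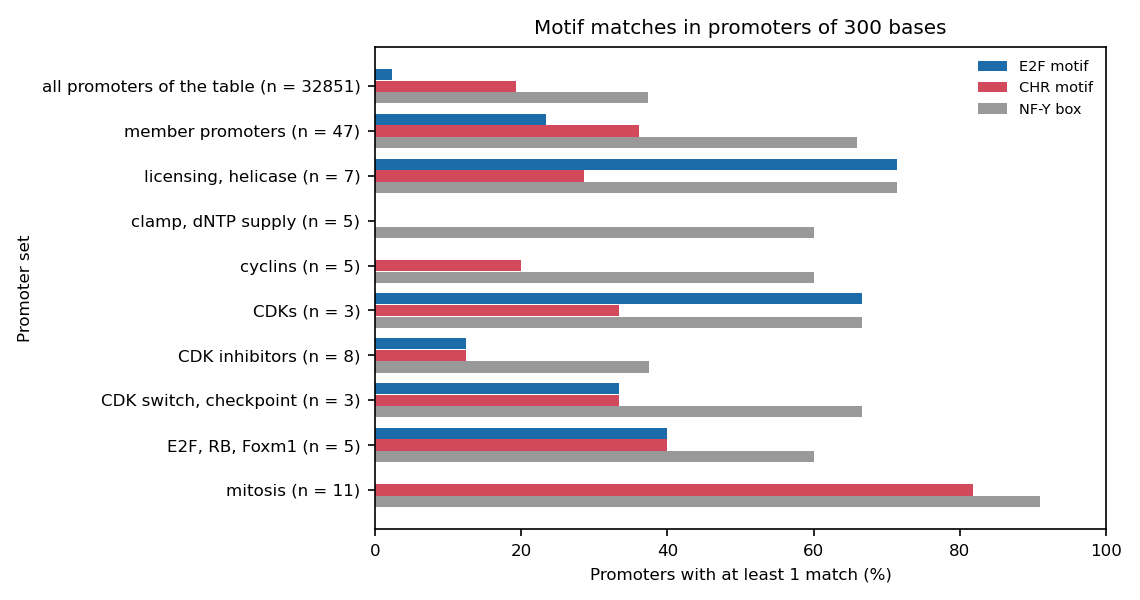
Share of promoters (horizontal axis, percent) with at least 1 match to the E2F motif, the CHR motif or the NF-Y box, for all 32851 promoters, for the 47 promoters of the 55 genes and for those of each role. The E2F bar is longest for licensing genes (71.4%) and absent for mitosis genes, whose CHR bar reaches 81.8%.

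Among the licensing genes, Mcm5 and Gins1 differed most among the lines by the p of the test over all 4. Mcm5, a subunit of the helicase ring, stood at 266 and 216 CPM for pB2, 154 and 178 for pB3, 117 and 113 for Epcam hi, and 80.6 and 56.6 for 687g. The libraries fell in the order pB2, pB3, Epcam hi, 687g with no overlap. The fitted log2 fold change was -1.27 ± 0.20 (adjusted p = 3.34e-04) in 687g against pB3 and -0.54 ± 0.20 (adjusted p = 0.0425) in pB3 against pB2, a call that ended on leaving out any 1 of the 4 libraries of that pair. Gins1, part of the GINS complex that activates the helicase, stood at 85.0 and 75.4 CPM for pB2, 49.0 and 48.6 for pB3, 26.9 and 32.9 for Epcam hi, and 30.0 and 35.2 for 687g. It was high in pB2, intermediate in pB3 and low, with overlapping libraries, in Epcam hi and 687g. It was lower in Epcam hi than in pB2 (log2 fold change -1.42 ± 0.19, adjusted p = 2.26e-05).

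Mcm2, another subunit of the ring, was lowest in both 687g libraries. Its levels were 123 and 116 CPM for pB2, 104 and 103 for pB3, 95.1 and 104 for Epcam hi, and 56.4 and 37.2 for 687g, with -1.09 ± 0.20 (adjusted p = 7.79e-04) in 687g against Epcam hi. For the remaining ring subunits the ratio of the highest to the lowest line mean was 2.41 for Mcm3, 1.59 for Mcm4 and 1.34 for Mcm6. Mcm6 and Cdt1, a loading factor for the ring, did not pass the test among the lines (adjusted p = 0.0985 and 0.217). Cdc45, Cdc6 and Gins2 were each lower in Epcam hi than in pB2, with -1.30 ± 0.19 (adjusted p = 5.56e-05) for Gins2 (the calls of Cdc45 and Cdc6 ended without pB2 replicate 2 or Epcam hi replicate 1, and that of Cdc45 also without pB2 replicate 1), and between pB3 and pB2 their fold changes were 0.13, 0.18 and 0.12 (not called, and below 0 with total counts in place of scaling factors).

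Tyms and Tk1, which make thymidylate by synthesis and by salvage, had the widest spread of the deoxynucleotide genes. Tyms stood at 1020 and 919.8 CPM for pB2, 231 and 218 for pB3, 57.9 and 128 for Epcam hi, and 220.5 and 281 for 687g. Both pB2 libraries were far above the rest, and the Epcam hi libraries, the lowest, differed from each other by a larger ratio than the libraries of any other line. The log2 fold change was -2.11 ± 0.29 (adjusted p = 4.14e-05) in pB3 against pB2, -3.38 ± 0.31 (adjusted p = 6.43e-07) in Epcam hi against pB2 and 1.43 ± 0.29 (adjusted p = 0.00135) in 687g against Epcam hi. Without Epcam hi replicate 2 the last 2 moved to -4.15 and 2.20. Tk1 stood at 984 and 757 CPM for pB2, 212 and 221 for pB3, 163 and 189 for Epcam hi, and 109.9 and 142 for 687g. Again pB2 was apart, and both 687g libraries were the lowest. Its log2 fold change against pB2 was -2.01 ± 0.20 (adjusted p = 2.01e-06) for pB3 and -2.31 ± 0.20 (adjusted p = 4.84e-07) for Epcam hi.

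Many genes around Tyms and Tk1 were lower as well, 38 of 52 and 47 of 73 in pB3 against pB2. Tyms lies at chr5:30058202-30073617, and the 52 tested genes within 2 Mb had a median log2 fold change of -1.44 in pB3 against pB2 and -1.37 in Epcam hi against pB2. Tk1 (chr11:117815526-117826092) and Birc5 (chr11:117849251-117855743) are neighbours, and the 73 genes around Tk1 had medians of -1.04 and -0.85. The value of Tyms minus the median of its neighbours was -0.67 in pB3 and -2.01 in Epcam hi on the log2 scale, and that of Tk1 -0.97 and -1.46. Without Tyms, Tk1 and Birc5, 13 of 52 genes were lower in pB3 and 23 of 52 in Epcam hi than in pB2. Of all genes tested, 23.2% and 25.6% were lower, so the count for pB3 was near that share. The part of these stretches in the values of Tyms, Tk1 and Birc5 was not tested. The other members of the group moved less. Rrm1, the large subunit of ribonucleotide reductase, was lowest in 687g (-0.84 ± 0.18 (adjusted p = 0.00283) against pB3), Pcna was called in Epcam hi against pB2 alone (-0.55 ± 0.20 (adjusted p = 0.0382), lost on leaving out pB2 replicate 1 or 2, pB3 replicate 1 or 2, or Epcam hi replicate 1), and Rrm2 was called in no comparison (adjusted p = 0.595 among the lines).

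Cyclins of the D type, which start the passage out of G1, differed from each other in their pattern. Ccnd2 (chr6:127125162-127152193) stood at 0.222 and 0.106 CPM for pB2, 103 and 101 for pB3, 16.4 and 12.2 for Epcam hi, and 48.2 and 34.8 for 687g, the pB2 values resting on 5 counts. It was near the limit of detection in pB2 and present in the other lines, with pB3 above 687g and 687g above Epcam hi and no overlap. The log2 fold change was 9.29 ± 0.38 (adjusted p = 4.15e-10) in pB3 against pB2, 6.46 ± 0.40 (adjusted p = 1.34e-08) in Epcam hi against pB2, 1.54 ± 0.22 (adjusted p = 8.13e-05) in 687g against Epcam hi and -1.30 ± 0.21 (adjusted p = 3.90e-04) in 687g against pB3. With so few counts in pB2, the ratio of pB3 to pB2 in summed counts per scaled total was 661, with an exact 95% interval of 283 to 2039 that covers counting error only. Ccnd1 stood at 477 and 515 CPM for pB2, 1065 and 1058 for pB3, 1024 and 913 for Epcam hi, and 860.0 and 527 for 687g. Both pB2 libraries were the lowest, and the second 687g library was close to them. Its log2 fold change against pB2 was 1.10 ± 0.22 (adjusted p = 9.39e-04) for pB3 and 0.96 ± 0.22 (adjusted p = 0.0021) for Epcam hi. Ccnd3 varied little, at 19.4 and 23.8 CPM for pB2, 17.6 and 17.9 for pB3, 20.3 and 21.0 for Epcam hi, and 23.6 and 18.1 for 687g, and was not called (adjusted p = 0.579 among the lines).

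Per kilobase of exon, Ccnd1 was the most abundant cyclin D message in each line, with mean levels, in the order pB2, pB3, Epcam hi, 687g, of 105, 225, 206 and 147 CPM per kb. Ccnd2 reached 0.0174, 10.9, 1.52 and 4.41 CPM per kb and Ccnd3 2.46, 2.02, 2.35 and 2.38. In pB2 and Epcam hi Ccnd3 was therefore above Ccnd2 on this scale, and in pB3 and 687g Ccnd2 was above Ccnd3. The length used was the union of all annotated exons of a gene (9409 bases for Ccnd2 and 8775 for Ccnd3). It can exceed the length of the message made, so these ranks hold for that length only.

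E-type cyclins start S phase. Ccne1 (chr7:38097984-38107534) stood at 68.4 and 56.0 CPM for pB2, 33.3 and 36.0 for pB3, 62.2 and 70.6 for Epcam hi, and 12.0 and 14.7 for 687g. Epcam hi and pB2 overlapped at the top, pB3 lay below them and 687g was lowest. The fold change was -2.32 ± 0.20 (adjusted p = 6.19e-07) in 687g against Epcam hi, -1.38 ± 0.20 (adjusted p = 1.33e-04) in 687g against pB3, and -0.84 ± 0.19 (adjusted p = 0.00231) in pB3 against pB2, the last lost without pB3 replicate 1. Ccne2 did not share this pattern, at 278 and 319 CPM for pB2, 202 and 176 for pB3, 65.2 and 176 for Epcam hi, and 148 and 196 for 687g. Its Epcam hi libraries spread the widest, and it was lower in Epcam hi than in pB2 (log2 fold change -1.31 ± 0.33, adjusted p = 0.00476). Per kilobase, Ccne2 was above Ccne1 in each line, with mean levels of 85.4 against 23.4 CPM per kb in pB2 and 49.2 against 5.01 in 687g.

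Cyclins A and B act in S phase and at entry to mitosis. Ccna2 stood at 268 and 276 CPM for pB2, 168 and 160.2 for pB3, 117 and 148 for Epcam hi, and 104 and 104 for 687g, highest in pB2 and lowest in 687g without overlap. The log2 fold change was -0.73 ± 0.17 (adjusted p = 0.00325) in pB3 against pB2, which was lost without pB3 replicate 2, and -1.04 ± 0.17 (adjusted p = 2.03e-04) in Epcam hi against pB2. Ccnb1 stood at 57.8 and 49.6 CPM for pB2, 51.0 and 50.9 for pB3, 52.7 and 48.2 for Epcam hi, and 28.7 and 32.5 for 687g, level in 3 lines and lower in 687g (-0.72 ± 0.18 (adjusted p = 0.00577) against Epcam hi). Ccnb2 stood at 349.8 and 299 CPM for pB2, 219.9 and 235 for pB3, 231 and 158 for Epcam hi, and 103 and 132 for 687g, and 687g was again the lowest (-0.96 ± 0.21 (adjusted p = 0.00369) against pB3).

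Of the 3 kinases, Cdk2 alone passed the test among the lines, beside 66.5% of all genes tested. Cdk1, the mitotic kinase, stood at 767 and 711 CPM for pB2, 1002 and 993 for pB3, 814 and 988 for Epcam hi, and 634 and 870.3 for 687g, with pB3 the highest and no call in any comparison (adjusted p = 0.154 among the lines). Cdk4, the partner of cyclin D, stood at 1007 and 832 CPM for pB2, 850.2 and 966 for pB3, 648 and 718 for Epcam hi, and 612 and 736 for 687g and was not called either (adjusted p = 0.0613). Cdk2, the partner of cyclins E and A, stood at 88.2 and 83.4 CPM for pB2, 47.5 and 50.2 for pB3, 29.2 and 42.3 for Epcam hi, and 35.2 and 48.6 for 687g. Both pB2 libraries were above all others, with -1.26 ± 0.22 (adjusted p = 2.65e-04) in Epcam hi against pB2 and -0.81 ± 0.22 (adjusted p = 0.007) in pB3 against pB2, the latter lost without pB2 replicate 1 or pB3 replicate 1.

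All 5 CDK inhibitors differed among the lines, beside 66.5% of all genes tested, and each had its own pattern. Cdkn2a (chr4:89274471-89294653, minus strand), whose 2 starts give Ink4a and Arf, stood at 41.0 and 32.4 CPM for pB2, 0.269 and 0.129 for pB3, 12.4 and 10.3 for Epcam hi, and 40.2 and 30.1 for 687g. It was near the limit of detection in pB3, where both libraries together held 6 counts, intermediate in Epcam hi, and highest in pB2 and 687g, which overlapped. The fold change was -7.48 ± 0.38 (adjusted p = 2.46e-09) in pB3 against pB2, 7.42 ± 0.38 (adjusted p = 9.86e-09) in 687g against pB3 (8.01 without pB3 replicate 1), -1.69 ± 0.23 (adjusted p = 3.12e-05) in Epcam hi against pB2 and 1.64 ± 0.23 (adjusted p = 7.05e-05) in 687g against Epcam hi. The ratio of pB2 to pB3 in summed counts was 182, with an exact 95% interval of 83.4 to 497 from counting error. Counts per gene do not tell Ink4a from Arf.

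Cdkn2b, the INK4 inhibitor next to it (chr4:89306299-89311039), stood at 3.85 and 4.13 CPM for pB2, 0.604 and 1.03 for pB3, 39.5 and 19.8 for Epcam hi, and 65.8 and 51.9 for 687g. It was also lowest in pB3, with 25 counts in all, but low in pB2 as well and highest in 687g. The fold change was -2.27 ± 0.43 (adjusted p = 6.20e-04) in pB3 against pB2, 2.88 ± 0.32 (adjusted p = 4.42e-06) in Epcam hi against pB2, 6.15 ± 0.39 (adjusted p = 7.37e-08) in 687g against pB3 and 0.99 ± 0.28 (adjusted p = 0.0126) in 687g against Epcam hi, the last not called without 687g replicate 1 (adjusted p = 0.0800). Mtap, a gene of methionine salvage that lies beside the pair at chr4:89137122-89181081 and was picked after its values were seen, stood at 148 and 138 CPM for pB2, 189 and 193 for pB3, 323 and 342 for Epcam hi, and 711 and 656 for 687g. In pB3, where both inhibitors were lowest, both Mtap libraries stood above those of pB2, with no call (0.41 ± 0.16 against pB2, adjusted p = 0.0547). On the other side of Cdkn2b, Gm12609 was at 0.222 and 0.159 CPM for pB2 and listed at 0 in both pB3 libraries, with an adjusted p of 0.0249 and levels near the limit of detection. Of the other genes within 200 kb, Gm12602 and Gm12606 were at 0 in both pB2 libraries and were called higher in pB3, at 1.41 and 0.647 CPM and at 0.806 and 0.647 CPM. The 16 genes within 2 Mb of Cdkn2b had a median of 0.99 in Epcam hi against pB2. Those within 2 Mb of Cdkn2a, most of them the same genes, had a median of 1.13, while Cdkn2a itself was lower (-1.69).

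Cdkn2c, an INK4 inhibitor on another stretch of chromosome 4, stood at 96.2 and 96.5 CPM for pB2, 22.4 and 24.1 for pB3, 16.4 and 15.6 for Epcam hi, and 26.5 and 28.8 for 687g. Both pB2 libraries were far above the others and Epcam hi was lowest, with -2.05 ± 0.18 (adjusted p = 4.52e-07) in pB3 against pB2, -2.59 ± 0.18 (adjusted p = 4.57e-08) in Epcam hi against pB2 and 0.78 ± 0.18 (adjusted p = 0.00302) in 687g against Epcam hi. Cdkn1a, of the CIP/KIP family and a target of p53, stood at 16.0 and 15.1 CPM for pB2, 54.7 and 53.6 for pB3, 135 and 170.2 for Epcam hi, and 69.9 and 45.3 for 687g. The order was the reverse, with pB2 lowest, Epcam hi highest, and pB3 and 687g overlapping between them. The fold change was 1.80 ± 0.23 (adjusted p = 1.74e-05) in pB3 against pB2, 3.30 ± 0.24 (adjusted p = 5.67e-08) in Epcam hi against pB2 and -1.41 ± 0.22 (adjusted p = 1.60e-04) in 687g against Epcam hi. Cdkn1b stood at 320.2 and 295 CPM for pB2, 198 and 216 for pB3, 203 and 172 for Epcam hi, and 222 and 242 for 687g, with pB2 alone at the top (-0.72 ± 0.17 (adjusted p = 0.00317) in Epcam hi against pB2).

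**Figure D4:**
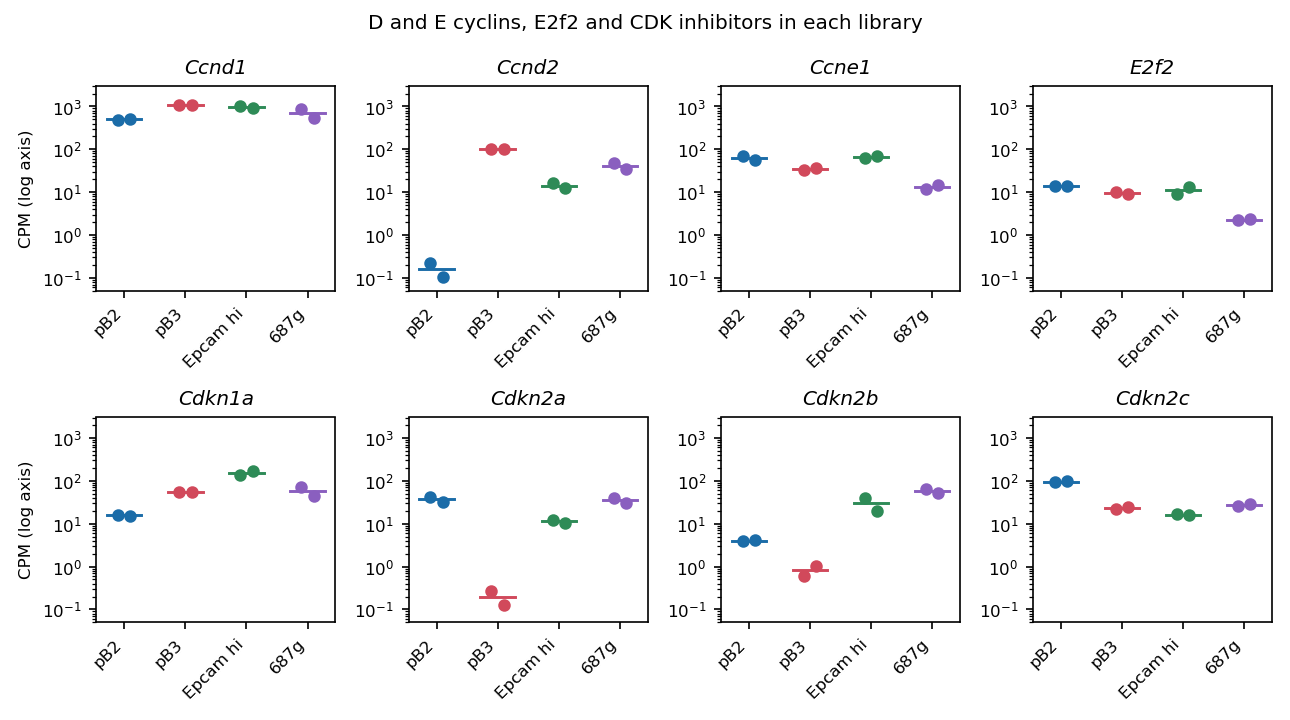
CPM on a log axis of Ccnd1, Ccnd2, Ccne1, E2f2 and 4 CDK inhibitors in each library, by line; points are libraries and bars are the mean of 2. Ccnd2 is lowest in pB2 (0.222 and 0.106 CPM), Cdkn2a is lowest in pB3 (0.269 and 0.129 CPM), and Ccne1 and E2f2 are lowest in 687g.

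Since Cdkn1a is a target of p53, 15 other p53 target genes were set beside it, 14 of which were tested. In Epcam hi against pB2, 12 of the 14 were higher and 1 lower, with a median log2 fold change of 1.85, where 51.4% of all genes tested were called. In 687g against Epcam hi, 11 were lower and 0 higher (median -1.56), where 36.4% of all genes were called. In pB3 against pB2, 5 were higher and 3 lower, where 44.8% of all genes were called, and in 687g against pB3, 5 were higher and 4 lower, where 25.8% were. Their summed level was 900.2 ± 37.4 CPM for pB2, 1037 ± 2.71 for pB3, 3721 ± 186 for Epcam hi and 1401 ± 232 for 687g. By the largest changes, Eda2r, a receptor of the TNF family, was lower in 687g than in Epcam hi (-4.99 ± 0.22), as was Pmaip1, which encodes Noxa (-3.73 ± 0.28). Both were higher in pB3 than in pB2 (2.12 ± 0.20 and 3.23 ± 0.33), whereas Fas, a death receptor, and Btg2 fell there (-4.67 ± 0.39 and -1.40 ± 0.21).

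**Figure D5:**
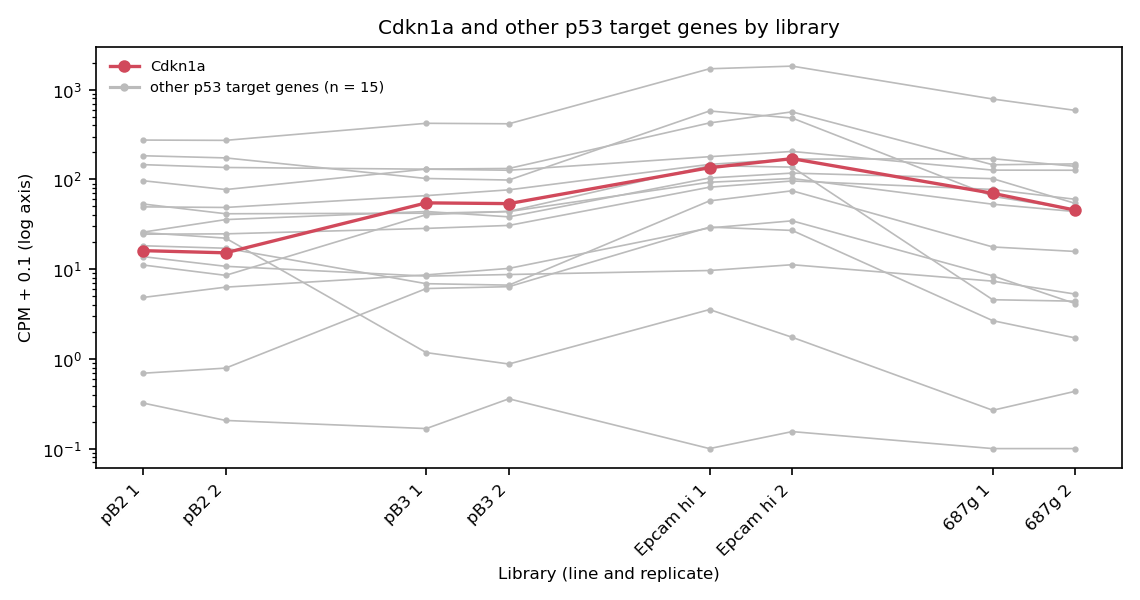
CPM + 0.1 on a log axis of Cdkn1a (red) and of 15 other p53 target genes (grey) in each library, with lines joining the values of a gene. Cdkn1a and most of the grey genes are highest in both Epcam hi libraries.

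In the group that controls the activity of CDKs by phosphorylation, Wee1 and Cdc25c differed most. Wee1, whose product blocks Cdk1, stood at 32.3 and 39.8 CPM for pB2, 29.3 and 26.1 for pB3, 48.9 and 48.8 for Epcam hi, and 16.2 and 14.2 for 687g. Epcam hi was the highest and 687g the lowest, with -1.68 ± 0.19 (adjusted p = 1.04e-05) between them. Cdc25c, a phosphatase that removes the block, stood at 57.2 and 55.9 CPM for pB2, 30.6 and 32.0 for pB3, 32.2 and 24.3 for Epcam hi, and 19.2 and 24.8 for 687g, with both pB2 libraries on top (-0.85 ± 0.20 (adjusted p = 0.00306) in pB3 against pB2 and -1.0 ± 0.20 (adjusted p = 8.33e-04) in Epcam hi against pB2). Chek1, the checkpoint kinase, was called in 687g against pB3 alone, at -0.71 ± 0.20 (adjusted p = 0.0194), which ended on leaving out any 1 of the 4 libraries of that pair. Cdc25a and Cdc25b, the other phosphatases of the family, were not called. The line means of Cdc25a differed by a ratio of 1.05 at most.

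Of the transcription factors, E2f2, an activator of S phase genes, stood at 13.9 and 14.2 CPM for pB2, 10 and 9.32 for pB3, 9.20 and 13.1 for Epcam hi, and 2.23 and 2.35 for 687g. Both 687g libraries were far below the rest, at 75 counts in all, with -2.29 ± 0.27 (adjusted p = 1.29e-05) against Epcam hi and -2.08 ± 0.27 (adjusted p = 5.76e-05) against pB3. E2f1, an activator of the same class, stood at 29.4 and 31.0 CPM for pB2, 33.6 and 33.1 for pB3, 21.3 and 29.4 for Epcam hi, and 40.2 and 37.7 for 687g and was highest in 687g (0.62 ± 0.19 (adjusted p = 0.0227) against Epcam hi). That call ended with total counts (adjusted p = 0.0531), with only these lines in the fit (0.0852), without Epcam hi replicate 1 (0.180) and without 687g replicate 1 (0.0653), and the test among the lines gave adjusted p = 0.0621. E2f8, a repressor of the family, stood at 43.0 and 49.3 CPM for pB2, 85.5 and 86.2 for pB3, 66.7 and 66.8 for Epcam hi, and 36.8 and 32.8 for 687g. It was highest in pB3 (0.90 ± 0.17 (adjusted p = 7.35e-04) against pB2) and lowest in 687g (-1.30 ± 0.17 (adjusted p = 7.52e-05) against pB3 and -0.94 ± 0.17 (adjusted p = 7.30e-04) against Epcam hi). Its call in Epcam hi against pB2 (0.53 ± 0.17 (adjusted p = 0.0197)) was lost in 7 of the alternatives tried, with adjusted p of 0.0671 to 0.185. The 11 genes within 2 Mb of E2f8 had a median of 0.90 in pB3 against pB2, but those within 1 Mb had 0.21 and those within 5 Mb 0.072.

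Rb1, the retinoblastoma gene, stood at 14.8 and 22.4 CPM for pB2, 13.2 and 13.2 for pB3, 15.5 and 16.3 for Epcam hi, and 22.1 and 14.8 for 687g and was called in no comparison (adjusted p = 0.258 among the lines). Rbl1, which encodes the related p107 protein, stood at 153 and 137 CPM for pB2, 81.8 and 89.5 for pB3, 81.5 and 102 for Epcam hi, and 48.7 and 60.5 for 687g. It was highest in pB2 and lowest in 687g, with -0.76 ± 0.19 (adjusted p = 0.00441) in pB3 against pB2 (lost without pB2 replicate 1 or pB3 replicate 1) and -0.75 ± 0.19 (adjusted p = 0.0066) in 687g against Epcam hi (lost without Epcam hi replicate 2 or 687g replicate 1). Foxm1, the activator of late cell cycle genes, stood at 59.5 and 75.5 CPM for pB2, 87.4 and 83.5 for pB3, 49.8 and 76.5 for Epcam hi, and 54.8 and 45.8 for 687g. Both pB3 libraries were the highest, and the 1 call was in 687g against pB3 (-0.76 ± 0.22 (adjusted p = 0.0198)), lost without either pB3 library or 687g replicate 2.

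Of the 13 mitosis genes, 9 were lower in 687g than in pB3 and 7 than in Epcam hi, and none was higher in either, beside 12.9% and 18% of all genes tested that were lower. Leaving out pB3 replicate 2 lowered the 9 to 4 and leaving out pB3 replicate 1 to 5, and the 7 was 4 without pB2 replicate 2, pB3 replicate 1, pB3 replicate 2 or Epcam hi replicate 2. Birc5 (survivin, of the chromosomal passenger complex) stood at 925 and 853 CPM for pB2, 319 and 306 for pB3, 198 and 304 for Epcam hi, and 170.4 and 211 for 687g. As with its neighbour Tk1, pB2 was far above the rest, with -1.51 ± 0.21 (adjusted p = 5.60e-05) in pB3 against pB2 and -1.82 ± 0.22 (adjusted p = 8.88e-06) in Epcam hi against pB2. Its own stretch had medians of -1.03 and -0.85. Cdc20, an activator of the anaphase-promoting complex, stood at 173 and 151 CPM for pB2, 126 and 140.3 for pB3, 104 and 88.0 for Epcam hi, and 56.5 and 49.6 for 687g. The lines followed the order pB2, pB3, Epcam hi, 687g with no overlap, and 687g was lower than pB3 (log2 fold change -1.33 ± 0.18, adjusted p = 9.02e-05) and than Epcam hi (log2 fold change -0.85 ± 0.18, adjusted p = 0.00195).

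Aurka, Aurkb, Plk1 and Bub1, kinases of the mitosis group, shared the low level in 687g. Against Epcam hi the log2 fold changes were -0.90 for Aurka, -0.83 for Aurkb, -0.67 for Plk1 and -0.61 for the spindle checkpoint kinase Bub1, with adjusted p of 0.00237, 0.00173, 0.0210 and 0.0206. The motors Kif11 and Kif20a were lower as well, at -0.50 and -0.56 (adjusted p = 0.0272 and 0.0157). The calls of Plk1, Bub1, Kif11 and Kif20a were each lost without Epcam hi replicate 2, and with only these lines in the fit. Bub1b was lower in pB3 and in Epcam hi than in pB2 (-0.58 and -0.91), the former lost without pB2 replicate 2, pB3 replicate 1 or pB3 replicate 2. Mki67, the proliferation marker, spread from 231 to 358 CPM within pB2 and was lower in 687g than in pB3 (-0.70 ± 0.24, adjusted p = 0.0474, lost with limma-voom and without pB2 replicate 2, either pB3 library or 687g replicate 2). Top2a, Cenpe and Cenpf did not pass the test among the lines (adjusted p = 0.101, 0.818 and 0.117).

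Genes of the same processes outside the 55 were counted in the same fits. Of 41 other replication genes, 17 were lower and 1 higher in pB3 than in pB2, 29 lower and 1 higher in Epcam hi than in pB2, 9 lower and 0 higher in 687g than in Epcam hi, and 21 lower and 0 higher in 687g than in pB3. Of all genes tested, 23.2%, 25.6%, 18% and 12.9% were lower in these comparisons. By size, the clamp loader gene Rfc3 (-2.12 ± 0.20) and the histone message binder Slbp (-2.0 ± 0.19) were lowest in pB3 against pB2, and Orc1 (-1.99 ± 0.22) and Mcm10 (-0.90 ± 0.18) in 687g against Epcam hi. Rfc3 and Slbp lie on chromosome 5 among neighbours with medians of -1.47 and -1.76. Of the 10 replication genes on chromosome 5, 7 were called lower in pB3 against pB2 and 9 had a fold change below 0. Of the 29 on chromosomes other than 5 and 11, 9 were called lower and 22 had a fold change below 0, with a median of -0.35. Pola2, the 1 that was higher (0.47 ± 0.18, adjusted p = 0.0448), lies among neighbours with a median of 0.60.

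Of 40 other mitotic genes, 16 were lower and 2 higher in pB3 than in pB2, 16 lower and 3 higher in Epcam hi than in pB2, 16 lower and 1 higher in 687g than in Epcam hi, and 22 lower and 0 higher in 687g than in pB3. The 18 of 40 called in pB3 against pB2 are 45%, beside 44.8% of all genes. Of all genes tested, 23.2%, 25.6%, 18% and 12.9% were lower in these comparisons, in the order given, and 21.6%, 25.8%, 18.4% and 12.8% higher. Spc24, of the kinetochore, had the lowest value in pB3 against pB2 (-1.80 ± 0.18) and Ect2, which directs cytokinesis, in 687g against Epcam hi (-1.42 ± 0.17). Anln, an actin-binding protein of the cleavage furrow, was higher in pB3 (1.26 ± 0.17). Of 20 other regulators, 6 were higher and 5 lower in pB3 than in pB2, beside 21.6% and 23.2% of all genes. In 687g against Epcam hi, 4 were higher and 6 lower, beside 18.4% and 18% of all genes. Ccng2, a cyclin linked to arrest, was the highest in both (1.23 ± 0.19 and 0.97 ± 0.19). Myc was higher in pB3 (1.02 ± 0.20), and Skp2, which targets Cdkn1b for degradation, was lower (-0.88 ± 0.19). In 687g, Ccnf (-1.0 ± 0.18) and E2f4 (-0.86 ± 0.18) were lower, and Rbl2, the partner of E2f4 in resting cells, was higher (0.82 ± 0.21).

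The contrast 687g against Epcam hi was set against pB3 against pB2 in the same fit. The difference between them passed the test for 18 of the 55 genes, 9 in each direction, beside 18.2% higher, 19.5% lower and 37.7% called either way of all genes. All 5 inhibitors were among the 18: the difference was 9.11 ± 0.45 (adjusted p = 2.69e-09) for Cdkn2a (9.71 without pB3 replicate 1), 3.26 ± 0.51 (adjusted p = 1.71e-04) for Cdkn2b, 2.84 ± 0.25 (adjusted p = 7.13e-07) for Cdkn2c, 0.88 ± 0.24 (adjusted p = 0.0107) for Cdkn1b (lost without pB3 replicate 1) and -3.21 ± 0.31 (adjusted p = 2.11e-06) for Cdkn1a. Of the cyclins, Ccnd2, Ccnd1 and Ccne1 differed, at -7.75 ± 0.46 (adjusted p = 1.47e-08), -1.58 ± 0.31 (adjusted p = 9.84e-04) and -1.47 ± 0.27 (adjusted p = 6.35e-04). Of the mitosis genes, Birc5 and Kif20a alone did, at 1.11 ± 0.30 (adjusted p = 0.00928) and -0.68 ± 0.23 (adjusted p = 0.0324), the latter lost under 10 of the 14 alternatives tried. Tyms differed by 3.54 ± 0.41 (adjusted p = 1.04e-05) (4.32 without Epcam hi replicate 2), Tk1 by 1.52 ± 0.28 (adjusted p = 5.79e-04), E2f8 by -1.83 ± 0.24 (adjusted p = 4.17e-05) and E2f2 by -1.75 ± 0.36 (adjusted p = 0.00146). The other 4 were Wee1, Mcm2, Gins1 and Cdk2.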

How the data were processed

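RNA from 4 cell lines, 2 libraries each, was sequenced. Per the labels and the design text, single-end reads were aligned with STAR 2.6.1a to GRCm38 (mm10) and the authors deposited raw read counts per gene from featureCounts, counted by strand. Totals were 12442730 to 19149916 counts per library. No value was normalized before deposit.

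Here, edgeR 4.0.16 fitted all 8 libraries with 1 coefficient per line (quasi-likelihood F test, two-sided, TMM scaling factors, filterByExpr, Benjamini-Hochberg over 15890 genes, adjusted p under 0.05). CPM used totals times the TMM factors, and ± beside a fold change is its standard error. On simulated counts for pB3 against pB2 (15890 genes), the fit called 34% of genes changed 2-fold, 93% of those changed 4-fold and 0.067% of unchanged genes. On the measured counts, 44.8% of all genes were called in pB3 against pB2. The simulated counts had few changed genes, in pB3 alone, and the same spread between libraries for every gene and line. Whether the shares from simulated counts hold for the measured counts was not tested. Alternatives were RLE factors, total counts, no filter, DESeq2 1.42.0, limma-voom (limma 3.58.1), a replicate block, only the lines compared, and leaving out each library.

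Every cyclin, CDK, CDK inhibitor, E2F, RB family member and Foxm1, and the 2 genes with the smallest p in each other role, are given in every library. Full statistics go to the called genes with the largest changes, up to 6 in each direction, and in each other list to at most 2 in each direction. Neighbourhoods needed 10 tested genes and a median beyond 0.8. The members and lists were chosen with earlier results of these data known. Counts without Tyms, Tk1 and Birc5 the matching sums, counts by role without single libraries, and the intervals for few counts were added after seeing the data.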

Additional observations from a re-analysis of the deposited data

Results flagged for a closer look

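For 18 of the 55 genes the change in 687g against Epcam hi differed from that in pB3 against pB2 by the test of that difference in edgeR (adjusted p under 0.05), beside 37.7% of all genes tested. On the log2 scale the difference was above 0 for Cdkn2a (9.11), Tyms (3.54), Cdkn2b (3.26), Cdkn2c (2.84), Tk1 (1.52), Birc5 (1.11), Cdk2 (1.04), Cdkn1b (0.88) and Gins1 (0.84). It was below 0 for Ccnd2 (-7.75), Cdkn1a (-3.21), E2f8 (-1.83), E2f2 (-1.75), Ccnd1 (-1.58), Ccne1 (-1.47), Wee1 (-1.30), Mcm2 (-0.88) and Kif20a (-0.68). The calls of Cdk2, Gins1, Mcm2, Cdkn1b and Kif20a ended on leaving out pB3 replicate 1.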

How the results depend on the processing

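With RLE factors or total counts no called result changed direction, though 11 of the 55 genes, none of them called, changed sign in pB3 against pB2 with total counts. In the other alternatives direction was checked only for the calls with the largest changes, up to 6 per direction, and none was reversed. Over the 5 contrasts the 55 genes gave 125 calls, of which 75 held in each alternative and 50 were lost on leaving out at least 1 library. Among the calls with the largest changes, up to 6 per direction, those lost in at least 1 alternative were E2f8 in Epcam hi against pB2 and E2f1 and Cdkn2b in 687g against Epcam hi. In pB3 against pB2, 25 genes were lower with total counts, beside 4590 of all 15890 genes. With only these lines fitted, 26 were lower and 7 higher, beside 4807 and 4547 of all 14683 genes. Leaving out 1 library gave, in pB3 against pB2, 5031 to 8093 calls over all genes, with 4 to 5 of the 55 higher and 8 to 20 lower. In 687g against Epcam hi it gave 4991 to 7150, with 5 to 10 higher and 14 to 20 lower. In Epcam hi against pB2 it gave 6039 to 9381, with 4 to 5 higher and 18 to 30 lower, and in 687g against pB3 2402 to 4991, with 2 higher and 16 to 32 lower. For the difference of the contrasts it gave 4633 to 7157, with 6 to 12 higher and 7 to 12 lower, and among the lines 8833 to 12770 and 36 to 46. The causes were not tested.

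Median log2 fold changes of neighbours moved with the window. At 2 Mb they were -0.85 for Foxm1 and -0.83 for Mki67 in 687g against Epcam hi. In Epcam hi against pB2 they were 1.32 for E2f8, 1.07 for Foxm1, 0.94 for Mki67 and -0.81 for Cenpe. In pB3 against pB2, Tk1 and Birc5 had -1.31 (1 Mb) and -0.89 (5 Mb), and E2f8 0.208 and 0.072. In 687g against Epcam hi, Foxm1 had -0.41 (5 Mb) and Mki67 -1.32 (1 Mb) and -0.22 (5 Mb). In Epcam hi against pB2, Tyms had -1.27 (1 Mb) and -1.42 (5 Mb), Mki67 2.72 and 0.32, and at 5 Mb Tk1 and Birc5 had -0.73, E2f8 0.077, Foxm1 0.43 and Cenpe -0.24.

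The difference between replicates 2 and 1 correlated weakly between lines over the genes tested (r = -0.098 to 0.173), and the main fit did not pair libraries by number. Whether same-numbered libraries share a batch was not tested, and the labels do not say. With a replicate block, 20, 25, 30 and 32 of the 55 were called in the 4 comparisons and 18 for the difference. Ccnd2 in pB2 (5 counts) and Cdkn2a in pB3 (6 counts) are limited by depth.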
